A study of Mus musculus with 6 samples.

Results

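Patz1, which encodes the transcription factor MAZR, and 4 zinc finger factors that also bind guanine-rich DNA, Maz, Vezf1, Zfp148 and Zfp281, were examined in splenic regulatory T (Treg) cells. The members were the rows of the deposited expression table whose symbol is one of these 5 names, out of 46078 gene identifiers. There were 6 such rows, because Vezf1 had a second identifier, ENSMUSG00000098546, which was listed at 0 in all 6 libraries and was set aside. All 5 genes passed the filter on low values. The question put to the data was whether a related factor differs between the genotypes along with Patz1.

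The tested libraries came from mice labelled MAZRf/f DEREG-eGFP+ CD4-cre+ (MAZR-cKO, 3 libraries), whose floxed Patz1 alleles are meant to be deleted in T cells by Cre recombinase driven from Cd4 elements. The others came from mice labelled wild type DEREG-eGFP+ (WT, 3 libraries). All animals were C57BL/6 and 6 to 8 weeks old, and both genotypes carried DEREG, a transgene whose green fluorescent protein reports Foxp3, the defining transcription factor of Treg cells. CD4+eGFP+ cells were sorted from spleen, 800000 to 2000000 per RNA preparation, and polyadenylated RNA was sequenced. Whether a library holds RNA of 1 animal or of several is not stated, so the p-values measure only the spread between these libraries, which may be technical in part. This Cre is switched on in thymocytes that express both CD4 and CD8, so it is not confined to Treg cells.

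The libraries held 15481565 to 28184456 reads over genes. Levels are given in CPM, reads scaled by a factor per library, with sums per library of 962039 to 991716 CPM. The 7 Treg markers (Foxp3, Il2ra, Ikzf2, Ctla4, Tnfrsf18, Cd4 and Cd3e) summed to 5072 to 5461 CPM in MAZR-cKO-labelled libraries and to 5123 to 5559 CPM in WT. All 7 were tested and 0 were called by limma, edgeR or DESeq2, with 0 at an unadjusted limma p under 0.05. Summed markers of other cells were low, and the sums overlapped between the labels for B, myeloid, NK and red cells. In a limma fit blocked on the replicate number 1 red cell gene was called, the globin gene Hbb-bs, which had 9.57, 7.25 and 4.54 CPM in MAZR-cKO-labelled libraries and 24.2, 14.1 and 7.05 CPM in WT (log2 difference -0.93, adjusted p = 0.0206). The 5 B cell genes summed to 42.3 to 73.2 CPM in MAZR-cKO-labelled libraries and 46.5 to 60.4 CPM in WT, and the 6 myeloid genes to 35.6 to 100.4 CPM in MAZR-cKO-labelled libraries and 61.9 to 71.7 CPM in WT. Of the B cell genes, Cd79b was lower without overlap, at 18.2 to 21.7 CPM in MAZR-cKO-labelled libraries and 21.9 to 25.0 CPM in WT. Among all genes tested 5.74% were lower without overlap. The other B cell genes averaged higher in MAZR-cKO-labelled libraries. The 4 CD8 T cell genes summed to 25.2 to 26.8 CPM in MAZR-cKO-labelled libraries and 22.04 to 23.5 CPM in WT. Only this sum lacked overlap, and each gene alone overlapped, where 5% of all genes tested lay higher without overlap. Gzmk averaged lower in MAZR-cKO-labelled libraries, at 0.435 CPM against 0.556 CPM in WT, and the others averaged higher. The 4 Y-linked genes summed to 116, 0.480 and 199 CPM in MAZR-cKO-labelled libraries 1, 2 and 3, against 217, 164 and 276 CPM in WT 1, 2 and 3.

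C2H2 zinc finger proteins read DNA through strings of small zinc-holding loops, and the members of this group favour runs of guanine in promoters. MAZR also has a BTB domain, through which such proteins pair and recruit corepressors, and AT hooks that touch the minor groove of DNA. It is known for repressing the Cd8 genes in immature thymocytes and for a part in CD4 against CD8 fate choice. MAZ, the MYC-associated zinc finger protein, was named for its binding to the Myc promoter. VEZF1 is required for blood vessel formation in mouse embryos, ZFP148 (ZBP-89) binds GC-rich elements and the p53 protein, and ZFP281 regulates genes of mouse embryonic stem cells.

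Patz1, the gene meant to be deleted, rose in MAZR-cKO-labelled libraries and was the only called member. Its level was 177, 181 and 179 CPM in MAZR-cKO-labelled libraries 1, 2 and 3, and 71.6, 74.9 and 67.6 CPM in WT 1, 2 and 3. The lowest MAZR-cKO-labelled library thus stood far above the highest WT library, without overlap. These levels rested on 2848, 3397 and 5171 reads in MAZR-cKO-labelled libraries and on 1410, 1364 and 1208 reads in WT. The means were 179 ± 2.09 CPM in MAZR-cKO-labelled libraries and 71.4 ± 3.65 CPM in WT (SD, n = 3 each), a ratio of 2.51. On the log2(CPM + 0.5) scale the difference was 1.32 (SE 0.05, 95% interval 1.21 to 1.44, limma with Benjamini-Hochberg adjustment over all tested genes, adjusted p = 3.72e-06). Within the 3 replicate numbers the difference was 1.30, 1.27 and 1.40, higher in 3 of 3, as for 12.9% of all genes tested. The exact two-sided permutation test on the CPM gave p = 0.1, the smallest that 3 libraries against 3 allow. It leaves out the pairing by replicate number.

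The level of the targeted gene was thus higher under the label that names its deletion. Each direction given here is that of MAZR-cKO-labelled libraries relative to those labelled WT. A value per gene sums the reads over every exon and so does not show whether a floxed segment was present. Whether the labels match the genotypes was therefore not tested. Patz1 (ENSMUSG00000020453) lies on chromosome 11 from 3288874 to 3309083 on the plus strand of mm10 and is annotated as protein-coding with 5904 exon bases. A pair of noncoding models overlap its 3' part. Gm12592, on the opposite strand, shares 605 exon bases with it and had 0.435 to 1.04 CPM in MAZR-cKO-labelled libraries and 0.494 to 1.07 CPM in WT. Gm11944, on the same strand, shares 88 exon bases and had 3.36 to 4.05 CPM in MAZR-cKO-labelled libraries and 2.74 to 3.20 CPM in WT. Patz1 itself differed by 108 CPM. How reads of the shared exon bases were counted is not given, and their part in the level of Patz1 was not tested. No annotated gene overlapped Maz, Vezf1, Zfp148 or Zfp281.

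**Figure D1:**
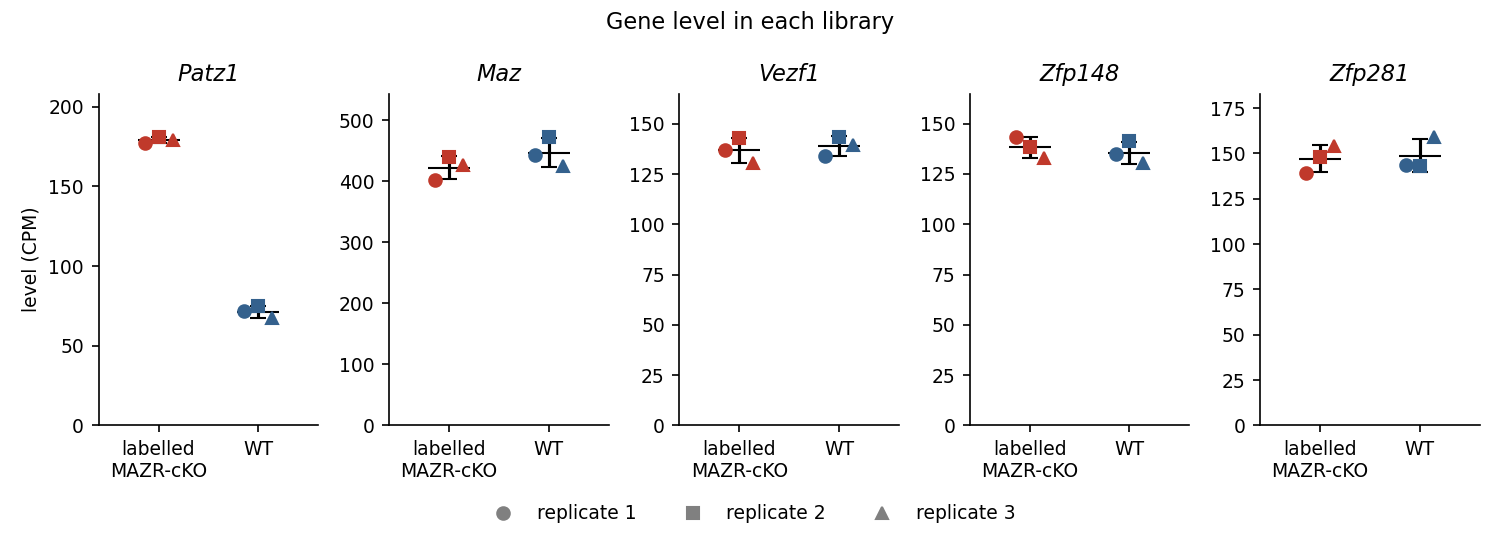
Level of each gene in CPM (vertical axis, from 0, with its own scale in each panel) in the 3 MAZR-cKO-labelled libraries and the 3 WT libraries. Symbols mark the replicate number, the horizontal line is the mean and the bar is the SD. Patz1 sits at 177 to 181 CPM in MAZR-cKO-labelled libraries and at 67.6 to 74.9 CPM in WT, while in the other 4 panels the groups overlap.

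Patz1 varied little among libraries of a label. Its coefficient of variation was 1.17% in MAZR-cKO-labelled libraries and 5.11% in WT, where counting error alone gives 1.67% in MAZR-cKO-labelled libraries and 2.75% in WT. In MAZR-cKO-labelled libraries the spread was therefore no wider than counting error. The 4 related factors had coefficients of 3.76 to 5.12% in MAZR-cKO-labelled libraries and 3.52 to 6.10% in WT, each above a counting error of 1.09 to 1.99%. The biological coefficient of variation that edgeR estimated was 5.09 to 5.71% over the 5 genes.

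Promoter letters are shown for Patz1, whose level differed, and for a pair of related factors, Maz and Zfp148, whose levels did not pass the test, since this family binds guanine-rich promoters. They are bases upstream of a RefSeq start (GRCm38.p6, the assembly that mm10 denotes), 5' to 3' on the gene's strand, and capitals mark GGGAGGG, the core of the known MAZ site, or its reverse complement CCCTCCC, with overlapping matches counted. Patz1 is at chr11:3288881-3289130 on the plus strand, Maz at chr7:127027038-127027255 on the minus strand and Zfp148 at chr16:33381052-33381301 on the plus strand.
Patz1: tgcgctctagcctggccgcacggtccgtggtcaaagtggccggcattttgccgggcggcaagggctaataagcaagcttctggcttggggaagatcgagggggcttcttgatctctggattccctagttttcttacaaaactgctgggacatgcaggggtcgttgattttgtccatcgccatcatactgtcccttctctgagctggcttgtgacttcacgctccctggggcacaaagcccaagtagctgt
Maz: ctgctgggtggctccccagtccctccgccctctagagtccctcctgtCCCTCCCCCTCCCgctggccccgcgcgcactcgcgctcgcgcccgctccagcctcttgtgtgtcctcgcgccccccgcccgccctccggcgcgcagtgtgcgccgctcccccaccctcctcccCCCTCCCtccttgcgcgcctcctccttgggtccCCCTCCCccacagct
Zfp148: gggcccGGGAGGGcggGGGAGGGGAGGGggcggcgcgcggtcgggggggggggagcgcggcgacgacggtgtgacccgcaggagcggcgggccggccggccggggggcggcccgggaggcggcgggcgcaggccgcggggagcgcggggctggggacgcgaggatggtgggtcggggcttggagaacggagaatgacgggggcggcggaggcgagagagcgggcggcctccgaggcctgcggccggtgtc
The Patz1 and Zfp148 stretches overlap exons of GENCODE processed-transcript models of the same genes. The Patz1 stretch shown holds 0 matches, the Maz stretch 4 and the Zfp148 stretch 3. Maz and Zfp148 have the highest counts of the related factors, and of the Zfp148 starts the one with more matches is shown. These counts depend on the start: the other RefSeq start of Zfp148, with a window on chromosome 16 from 33380525 to 33380774, has 0 matches, and the other start of Maz has 2. RefSeq gives 8 starts for the 5 genes, and GGGAGGG was found on either strand in 5 of these 8 windows of 250 bases, belonging to 4 of the 5 genes, where 19.7% of all 32851 such windows hold it. The second Patz1 start, with a window on chromosome 11 from 3290207 to 3290456 that lies in an annotated untranslated region and is not printed, has 1 match. The window of Zfp281, not printed, has 1 match of GGGAGGG. Vezf1, also not printed, has 0 matches of GGGAGGG but 6 positions of GGGGGG or its complement, a run present in 16.2% of all windows. A match of letters is a description and not a site of binding.

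Of the 4 related factors, 0 were called by limma, edgeR or DESeq2, and 0 had an unadjusted limma p under 0.05. Among the 5 members the count called was thus 1, beside 0.0415% of 12040 genes tested. That share is 0.0386% of 12957 genes with edgeR. The groups did not overlap for Patz1 alone of the 5, while among all genes tested 5% lay higher and 5.74% lower with no overlap.

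Maz, the most abundant of the 5, had 401, 439 and 426 CPM in MAZR-cKO-labelled libraries 1, 2 and 3 and 443, 473 and 425 CPM in WT 1, 2 and 3. The ranges overlapped, with the lowest value in MAZR-cKO 1 and the highest in WT 2. The means were 422 ± 19.3 CPM in MAZR-cKO-labelled libraries and 447 ± 24.1 CPM in WT (SD, n = 3 each), a log2 difference of -0.08 (SE 0.06) with a limma adjusted p of 0.917. Its 95% interval ran from -0.21 to 0.05, or from -13.6 to 3.39% on the linear scale. Pair by pair the log2 difference was -0.14, -0.11 and 0.0040, so 1 of 3 was higher. Maz (ENSMUSG00000030678) lies on chromosome 7 from 127022130 to 127027037 on the minus strand.

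Vezf1 had 137, 143 and 131 CPM in MAZR-cKO-labelled libraries and 134, 144 and 139.5 CPM in WT. The libraries of both labels were interleaved. The log2 difference was -0.02 (SE 0.05, limma adjusted p = 0.968), with a 95% interval of -0.14 to 0.09, or -9.13 to 6.66%. Vezf1 (ENSMUSG00000018377) spans chromosome 11 from 88068279 to 88084729, on the same chromosome as Patz1.

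Zfp148 had 143, 138 and 133 CPM in MAZR-cKO-labelled libraries and 135, 141 and 131 CPM in WT. Its groups overlapped as well, with 2 of 3 pairs higher. The log2 difference was 0.03 (SE 0.05, limma adjusted p = 0.950), with a 95% interval of -0.08 to 0.14, or -5.61 to 10.4%. Zfp148 (ENSMUSG00000022811) lies on chromosome 16 from 33380836 to 33504363.

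Zfp281 had 139, 148 and 154 CPM in MAZR-cKO-labelled libraries and 144, 143 and 159 CPM in WT. In both labels replicate 3 was the highest library. The log2 difference was -0.01 (SE 0.06, limma adjusted p = 0.989), with a 95% interval of -0.15 to 0.12, or -9.80 to 8.60%. Zfp281 (ENSMUSG00000041483) lies on chromosome 1 from 136624901 to 136630053. For all 4 factors the interval lay below that of Patz1, which ran from 131 to 171%. These intervals come from the fit without the replicate block. They bound the difference and do not show that a factor was equal in both groups.

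**Figure D2:**
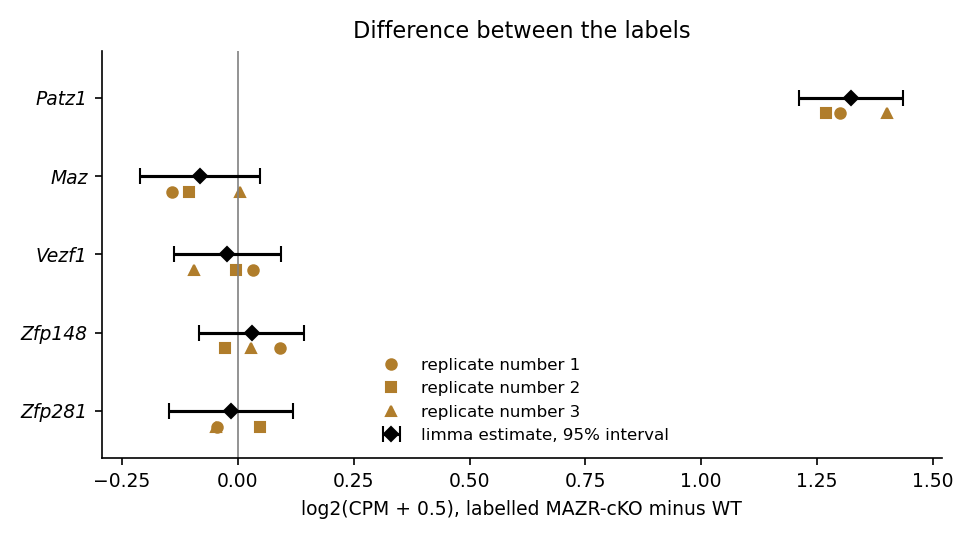
Difference in log2(CPM + 0.5), MAZR-cKO-labelled libraries minus WT (horizontal axis), for the 5 genes. Diamonds and bars are the limma estimate and its 95% interval, and the symbols beneath are the differences within replicate numbers 1, 2 and 3. Patz1 lies at 1.32 with its interval from 1.21 to 1.44, and the other 4 intervals cross 0.

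Sex-linked transcripts differed between the labels within pairs. The summed level of the Y-linked genes was lower in MAZR-cKO-labelled libraries in 3 of 3 pairs and lowest in MAZR-cKO 2, although the groups overlapped. Xist, the RNA that coats the inactive X chromosome of female cells, had 1145, 1552 and 605 CPM in MAZR-cKO-labelled libraries and 561, 774 and 355 CPM in WT, higher in 3 of 3 pairs (log2 difference 0.93, limma adjusted p = 0.914, or 1.05e-05 with the replicate number as a block). With the block, limma called none of the Y-linked genes (adjusted p 0.229 to 0.335). Among all genes tested 12.9% were higher and 19.2% lower in 3 of 3 pairs. Sex-linked transcripts thus differed by label within pairs, with a call for Xist alone. The part of sex-linked transcripts in the differences given here was not tested beyond the covariate fit and the left-out library. In every library but MAZR-cKO 2, Xist was accompanied by a Y-linked sum of 116 CPM or more, against 0.480 CPM in MAZR-cKO 2. Whether the libraries in which these transcripts occur together pool RNA of male and female mice was not tested. With the sum of the Y-linked genes as a covariate the log2 difference of Patz1 was 1.28, and without MAZR-cKO 2 it was 1.32. In the same covariate fit Maz stood at -0.14, Vezf1 at -0.09, Zfp148 at -0.02 and Zfp281 at 0.04, with 0 of these 4 called (without the covariate -0.08, -0.02, 0.03 and -0.01).

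Scaled by exon length, Patz1 changed its place among the 5 genes. In MAZR-cKO-labelled libraries the order of mean levels was Maz at 142 ± 6.48 CPM per kb, Patz1 at 30.3 ± 0.354, Zfp281 at 29.8 ± 1.53, Vezf1 at 29.8 ± 1.36 and Zfp148 at 13.3 ± 0.501 CPM per kb (SD, n = 3). Patz1, Zfp281 and Vezf1 overlapped there and were not separated by their spread. In WT the order was Maz at 150.1 ± 8.11 CPM per kb, Vezf1 at 30.2 ± 1.06, Zfp281 at 30.1 ± 1.84, Zfp148 at 13.1 ± 0.516 and Patz1 at 12.1 ± 0.618 CPM per kb. Vezf1 and Zfp281 overlapped in WT. Patz1 was the lowest of the 5 within each of the 3 WT libraries, just below Zfp148, although the ranges of these 2 genes overlapped across libraries. Over all libraries the mean CPM per kb of Patz1 lay at the 78.5th percentile of tested genes with an annotated length, that of Zfp148 at the 65.3rd, Vezf1 and Zfp281 at the 85.6th, and Maz at the 98.4th.

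The summed level of the 5 genes per kb was 237, 253 and 246 CPM per kb in MAZR-cKO-labelled libraries and 232, 245 and 229 CPM per kb in WT, and the groups overlapped. Patz1 made up 12.7, 12.1 and 12.3% of this sum in MAZR-cKO-labelled libraries, against 5.22, 5.17 and 4.99% in WT. The sum of the 4 related factors in CPM was 821, 869 and 844 in MAZR-cKO-labelled libraries and 855, 901 and 854 in WT, with means of 845 ± 24.1 CPM in MAZR-cKO-labelled libraries and 870 ± 26.6 CPM in WT (SD, n = 3 each). The ranges overlapped, and the sum was lower in MAZR-cKO-labelled libraries in 3 of 3 pairs, as for 19.2% of all genes tested. Maz, the most abundant of the 4, weighs most in this sum. Relative to the geometric mean CPM of the 4 related factors of the same library, Patz1 stood at 0.972, 0.956 and 0.975 in MAZR-cKO-labelled libraries and at 0.389, 0.389 and 0.361 in WT. This ratio does not move with the scaling of a library.

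**Figure D3:**
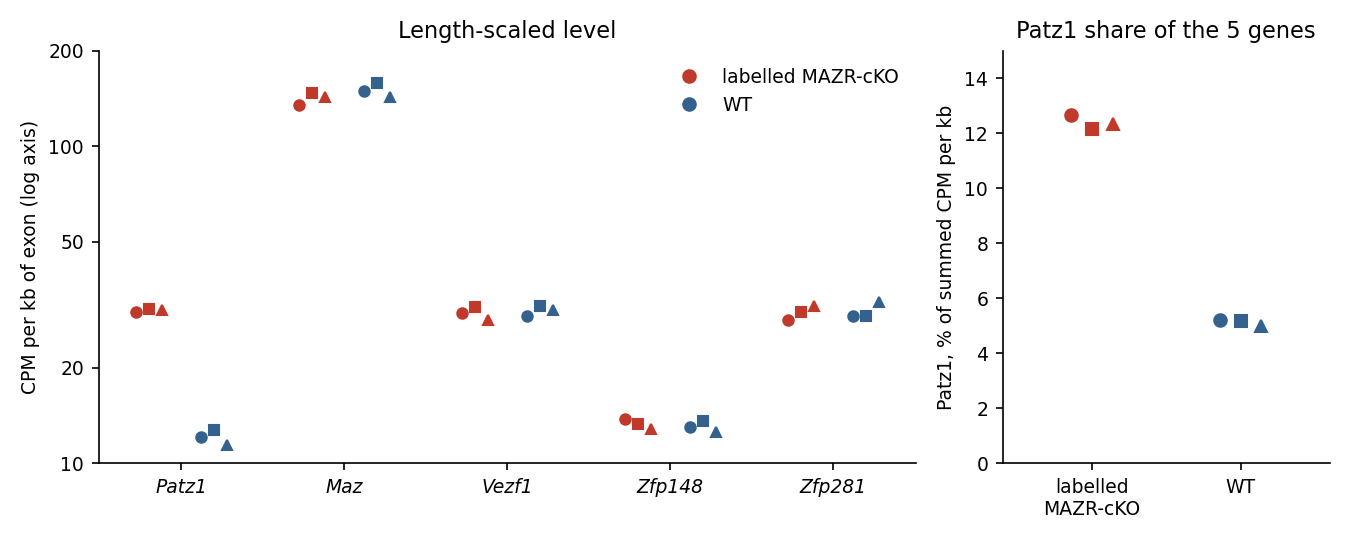
Left, level per kilobase of annotated exon (CPM per kb, log axis) for the 5 genes in each library, with MAZR-cKO-labelled libraries in red and WT in blue. Right, Patz1 as a percentage of the summed CPM per kb of the 5 genes: 12.1 to 12.7% in MAZR-cKO-labelled libraries and 4.99 to 5.22% in WT.

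Among 36 other factors that bind GC boxes or guanine-rich DNA (the Sp, Klf and Egr families, Zbtb7a, Zbtb7b, Ctcf and others), 32 were tested and 0 were called by limma, edgeR or DESeq2. Of the 32, 15 had a positive and 17 a negative log2 difference, with a median of -0.01 where the median of all tested genes was -0.01, and 2 had an unadjusted limma p under 0.05 where 5.25% of all genes did. These were Egr2, an immediate early factor of T cell receptor signalling, and Klf12. Egr2 had 51.3, 39.8 and 56.1 CPM in MAZR-cKO-labelled libraries and 60.2, 56.5 and 58.9 CPM in WT (log2 difference -0.27, SE 0.11, limma adjusted p = 0.914). Every MAZR-cKO-labelled library lay below every WT library, as for 5.74% of all genes tested. The difference of Egr2 was -0.12 without MAZR-cKO 2, the library with almost no Y-linked reads, and -0.04 with the Y-linked covariate. Klf12 was low, at 2.34 ± 0.373 CPM in MAZR-cKO-labelled libraries and 1.57 ± 0.320 CPM in WT (log2 difference 0.46, limma adjusted p = 0.914). Its groups did not overlap, where 5% of all genes tested lay higher without overlap. Zbtb7a, a BTB zinc finger factor like MAZR, had 161 ± 10.3 CPM in MAZR-cKO-labelled libraries and 174 ± 10.0 CPM in WT. Its log2 difference was -0.11, and it was larger with the Y-linked covariate, at -0.19 (limma adjusted p = 0.785).

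The most abundant of these factors were Klf13, Klf3 and Zbtb7b. Klf13 had 526 ± 52.0 CPM in MAZR-cKO-labelled libraries and 496 ± 31.4 CPM in WT, and Klf3 463 ± 106 CPM in MAZR-cKO-labelled libraries and 433 ± 35.7 CPM in WT. Library MAZR-cKO 2 was the highest of the 6 for Klf3, at 586 CPM. Zbtb7b, which encodes ThPOK, the BTB zinc finger factor of CD4 commitment, had a log2 difference of 0.03 (SE 0.07, limma adjusted p = 0.968).

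A list of 27 genes held partners of MAZR and genes reported as targets of this family, and 24 of them were tested. limma, edgeR and DESeq2 called 0 of the 24, with 17 positive and 7 negative log2 differences and a median of 0.03. Among all genes tested 5284 were positive and 6756 negative, with a median of -0.01. From the list 1 gene, Vim, had an unadjusted limma p under 0.05, where 5.25% of all genes tested did. Vim, the filament gene that ZBP-89 is reported to repress, had 584, 601 and 744 CPM in MAZR-cKO-labelled libraries and 716, 711 and 854 CPM in WT, lower in each of the 3 pairs, as for 19.2% of all genes tested, though the groups overlapped. With the replicate number as a block it passed in limma (log2 difference -0.25, adjusted p = 0.0444, where 0.382% of all genes passed) and missed in edgeR (adjusted p = 0.0729). The limma call with the block was lost without replicate 1 (log2 difference -0.22, adjusted p = 0.406) or replicate 2 (-0.25, adjusted p = 0.171) and held without replicate 3 (-0.27, adjusted p = 0.00634), with a difference of about the same size each time. Without the block, the difference of Vim was -0.16 without WT 3 and -0.06 with the Y-linked covariate.

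Trp53, the gene of the p53 protein that ZBP-89 and MAZR are reported to bind, had 203, 182 and 206 CPM in MAZR-cKO-labelled libraries and 219.95, 211 and 209.96 CPM in WT. Trp53 was thus lower without overlap, as for 5.74% of all genes tested, but short of the threshold (log2 difference -0.12, SE 0.06, limma adjusted p = 0.914). Its difference was -0.06 without MAZR-cKO 2 and -0.04 with the Y-linked covariate. Cd4 stood the other way, at 1019, 977 and 942 CPM in MAZR-cKO-labelled libraries and 901, 905 and 914 CPM in WT, a log2 difference of 0.11 (SE 0.05, limma adjusted p = 0.914). Cd4 was higher without overlap, as for 5% of all genes tested. Foxp3 had 1313, 1365 and 1415 CPM in MAZR-cKO-labelled libraries and 1252, 1345 and 1371 CPM in WT.

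For the Cd8 genes, which MAZR is known to repress, the log2 difference was 0.12 (SE 0.18) for Cd8a and 0.13 (SE 0.11) for Cd8b1, and limma called neither (adjusted p = 0.938 and 0.922). The corepressor gene Ncor1, whose product binds BTB factors, differed by 0.01 (SE 0.06), and Bach2, which encodes a BTB partner of MAZR, by 0.06 (SE 0.05). Neither gene was called by limma, edgeR or DESeq2. Myc, whose promoter gave MAZ its name, had 117, 94.3 and 153 CPM in MAZR-cKO-labelled libraries and 147, 133 and 156 CPM in WT, and the groups overlapped.

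**Figure D4:**
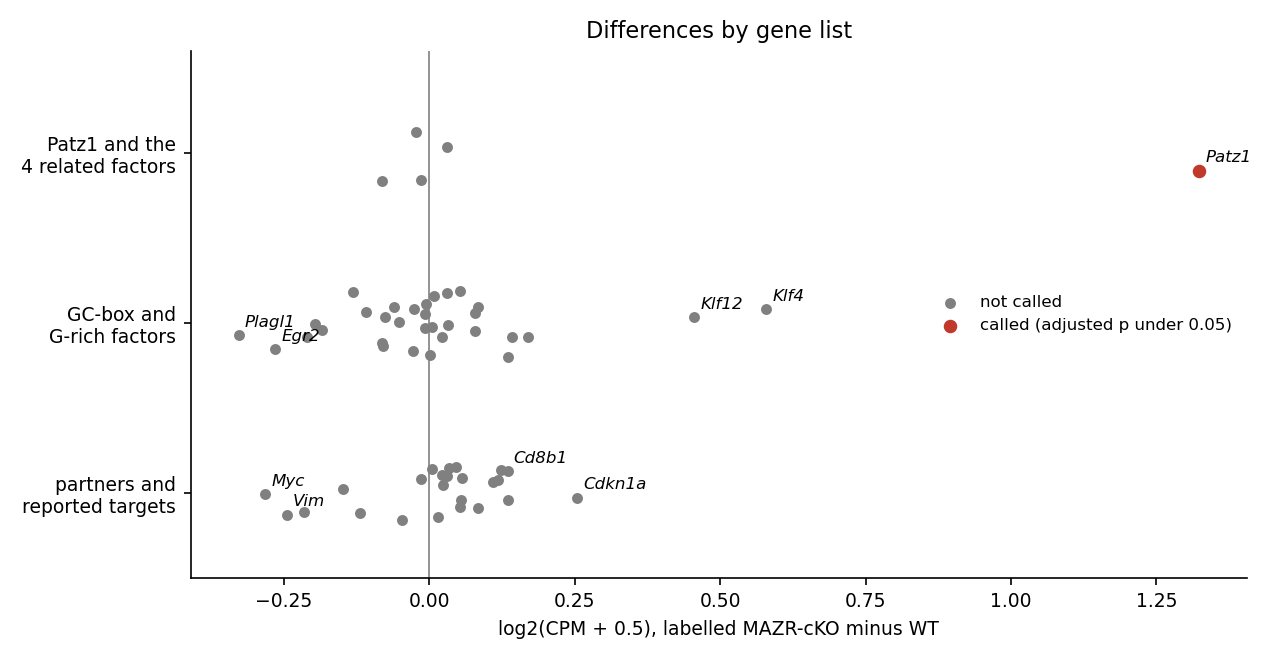
Difference in log2(CPM + 0.5), MAZR-cKO-labelled libraries minus WT (horizontal axis), for each tested gene of 3 lists, spread vertically for legibility. Names mark Patz1 and the 2 lowest and 2 highest genes of the other lists. Patz1, at 1.32, is the only gene called, and the others lie between -0.33 and 0.58.

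The genes whose log2(CPM + 0.5) followed Patz1 most closely over the 6 libraries were Gm33707, Gh, Tia1, Mettl7a1 and Pros1, with Pearson's r of 0.999, 0.997, 0.994, 0.993 and 0.990 among 12035 genes compared. As Patz1 forms a high and a low cluster by label, these values mostly record a difference between the labels, and they are a description. Gm33707, a processed pseudogene, and Gh, the growth hormone gene, averaged 17.4 and 46.8 CPM in MAZR-cKO-labelled libraries and were near 0 in WT, at 0.0366 and 0.0539 CPM. Tia1, an RNA-binding protein gene, averaged 126 ± 1.63 CPM in MAZR-cKO-labelled libraries and 110.5 ± 1.00 CPM in WT, and was not called (limma adjusted p = 0.409). The closest gene was Rab5b for Maz (r = 0.992), Ep300 for Vezf1 (r = 0.994), Ccl3 for Zfp148 (r = 0.990) and Mzt1 for Zfp281 (r = 0.998), each over the same 6 libraries. Each r is the highest picked from 12035 over only 6 libraries, so these values too are a description. Ccl3 was near the filter on low values, at 0.671 to 2.42 CPM.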

How the data were processed

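Per the submitters' processing notes, FastQC, STAR 2.5.2b, Subread 1.5.1, R 3.4, edgeR and the build mm10 were used, with roles, settings and annotation not given in the sources used here. The deposited values are CPM, 1 column per library, each summing to 96.2 to 99.2% of the total that plain CPM would give, with 0 further value columns. Within a tolerance of 0.01 reads, 100% of values above 0 were whole multiples of the smallest, so whole reads were recovered, and 1 read was worth 0.0347 to 0.0621 CPM. Counting error covers reads, not molecules.

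Coordinates, overlaps and exon lengths come from GENCODE M21 (GRCm38), where 45229 identifiers were found. limma 3.58.1 (R 4.3.3) with an intensity trend was fitted on log2(CPM + 0.5), which understates changes of low genes, over 12040 genes with 1 CPM in at least 3 libraries. A gene was called at an adjusted p under 0.05. On the recovered reads edgeR 4.0.16 called 5 genes, and DESeq2 1.42.0 was also run. Library pairs differed by a chi-square of 5.38 to 19.0 per degree of freedom, so none was a copy. Same-numbered libraries, which share a code in the labels, correlated after removal of the group means at 0.399, 0.381 and 0.379, each above 0.1, so the numbers pair the libraries. The main limma, edgeR and DESeq2 fits left this pairing out, and only the fits with the replicate block used it. The members and lists were chosen with earlier results of these data known. Genes named are the members, called list genes, the 3 of smallest p and 3 of highest level per list, genes overlapping a member and the closest genes by Pearson's r. Cd8a, Cd8b1, Ncor1, Bach2 and Myc were added for their known roles, and Xist and Hbb-bs for their calls with the block, after their values were seen. Gzmk and Cd79b were added after their values were seen, as exceptions within their marker lists.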

Additional observations from a re-analysis of the deposited data

How the results depend on the processing

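Under the 20 alternatives (edgeR, DESeq2, replicate block, 2 other pseudocounts, no filter, 3 scalings, the Y-linked covariate, and libraries or pairs left out) Patz1 kept its direction and call, and the count of members called stayed at 1. Without a single library its log2 difference ran from 1.29 to 1.36, that of Maz from -0.117 to -0.0401, Vezf1 -0.0551 to 0.0106, Zfp148 0.0032 to 0.0597 and Zfp281 -0.0489 to 0.0349. With the replicate block the uncalled sign turned for Vezf1 (0.0135) and Zfp281 (0.000827) without replicate 3, and for Zfp148 (-0.00033) and Zfp281 (0.000424) without replicate 1. It turned with the Y-linked covariate for Zfp148 (-0.0183) and Zfp281 (0.0415) and with plain library totals for Zfp281 (0.0017). The cause was not tested. Without a single library the log2 sum of the 4 related factors differed by -0.0636 to -0.0176 and the log2 ratio of Patz1 to them by 1.32 to 1.37.

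The count of all genes called was 5, or 46 with the replicate block (36 higher, 10 lower), 46 with edgeR and the replicate block, an alternative chosen after seeing the data, and 32 with DESeq2. Leaving out a single library gave 4 to 14, with 14 without MAZR-cKO replicate 3. With the replicate block it was 8, 45 and 279 without replicate 1, 2 and 3. Without replicate 3 the block called 4 of the GC-box and guanine-rich list (Egr2, Klf4, Klf6 and Plagl1) and 3 of the partners and targets (Bcl2, Myc and Vim), where the block on all libraries called 0 and 1. On all libraries the block changed the call of Vim alone among the members and the genes of the 2 lists. Each member had at least 1208 reads in every library.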
